A study of Homo sapiens with 2 samples.

Results

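The genes described here build the nuclear pore, carry mRNA out of the nucleus or move proteins across the nuclear envelope. They are 58 genes chosen by name and function, with earlier results of these data known. They comprise the export receptor pair NXF1 and NXT1 with its relative NXT2, genes of the THO and TREX complexes, nucleoporins, the Ran GTPase cycle and karyopherins. A gene's probes were those whose symbol in the probe annotation, updated to its current form, matched the list. By this rule 55 of the 58 genes had a probe, among 18753 genes with a probe on the array, and they had 71 probes in all. That the annotation is of the same array version as the series description names was not established, and every gene name rests on it. It paired no probe with NXF1, POM121 or XPOT, and these were not analysed.

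The cells were MDA-MB-231, an established human breast cancer line that the labels describe as highly invasive. One culture received 20 nM of an siRNA against NSD3L, a long form of NSD3, which methylates histone H3. The other received a non-targeting control siRNA, whose concentration the labels do not give, and is called control cells below. Each culture went through 2 transfections with 48 h between them and was harvested 48 h after the last. Each RNA was read on 1 Illumina expression beadchip with 1 intensity per probe, so the siRNA, the culture, the RNA extract and the array cannot be told apart. With no replicates, the values carry no error and no p-value was computed. A single siRNA sequence was used for each arm.

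Intensities had a median of 38.4 on both arrays and ran from 23.8 to 17421. They kept a background, and a floor at its upper edge lay at 40.9 on the NSD3L siRNA array and 41.0 on the control siRNA array. A gene was read by its brightest probe, and 10541 genes passed the floor on each array and are called measured. All 8 markers of MDA-MB-231 cells were above it, among them VIM and CD44. Their log2 ratios ran from -0.51, for PLAU, and -0.42, for MET, to 0.59, for AXL, and 0.94, for EGFR, whose other measured probe gave -0.03, and the median was 0.08. Of 9 luminal markers 6 were measured, including the keratin genes KRT8, KRT18 and KRT19, while ESR1, GATA3 and FOXA1 were below the floor on both arrays. Only PDGFRB of 6 fibroblast markers was measured. Of 6 blood and macrophage markers CD14, CD68 and LYZ were, and PTPRC, CD3E and HBB were not. Several of these passed the floor narrowly. In control cells PDGFRB read 55.6, CD14 53.8 and LYZ 45.5, and the luminal markers CDH1 and ERBB3 read 45.4 and 51.0. The largest log2 ratio over the 3 lists of other cell types was 0.42, for KRT18. The targeted gene read near the background on all 3 of its probes, at 37.6, 40.8 and 41.6 in NSD3L siRNA cells against 41.9, 55.3 and 45.0 in control cells. All 3 were lower, and only the last was above the floor on both arrays, so the depth of the depletion cannot be read from them.

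The nuclear pore is a ring-shaped channel in the nuclear envelope, built from a scaffold of structural nucleoporins and lined by nucleoporins rich in phenylalanine and glycine repeats. Messenger RNA is packaged by TREX, which recruits the heterodimer of NXF1 and NXT1, and this receptor passes through the repeat-lined channel. Proteins are carried instead by karyopherins, which read the gradient of GTP-bound Ran between nucleus and cytoplasm. Some scaffold nucleoporins and the Ran system also act at kinetochores and on the spindle during mitosis.

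Of the 55 genes with a probe, 53 were measured. ALYREF, the TREX adaptor that hands mRNA to NXF1, read 36.1 in NSD3L siRNA cells and 33.9 in control cells, and THOC3, a THO subunit, read 32.2 in NSD3L siRNA cells and 30.6 in control cells, so neither gave a ratio. The 53 measured genes split almost evenly, with 27 higher and 26 lower on the NSD3L siRNA array and a median log2 ratio of 0.01. Over all 10541 measured genes 5193 read higher and 5337 lower, and the median was -0.0041.

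**Figure D1:**
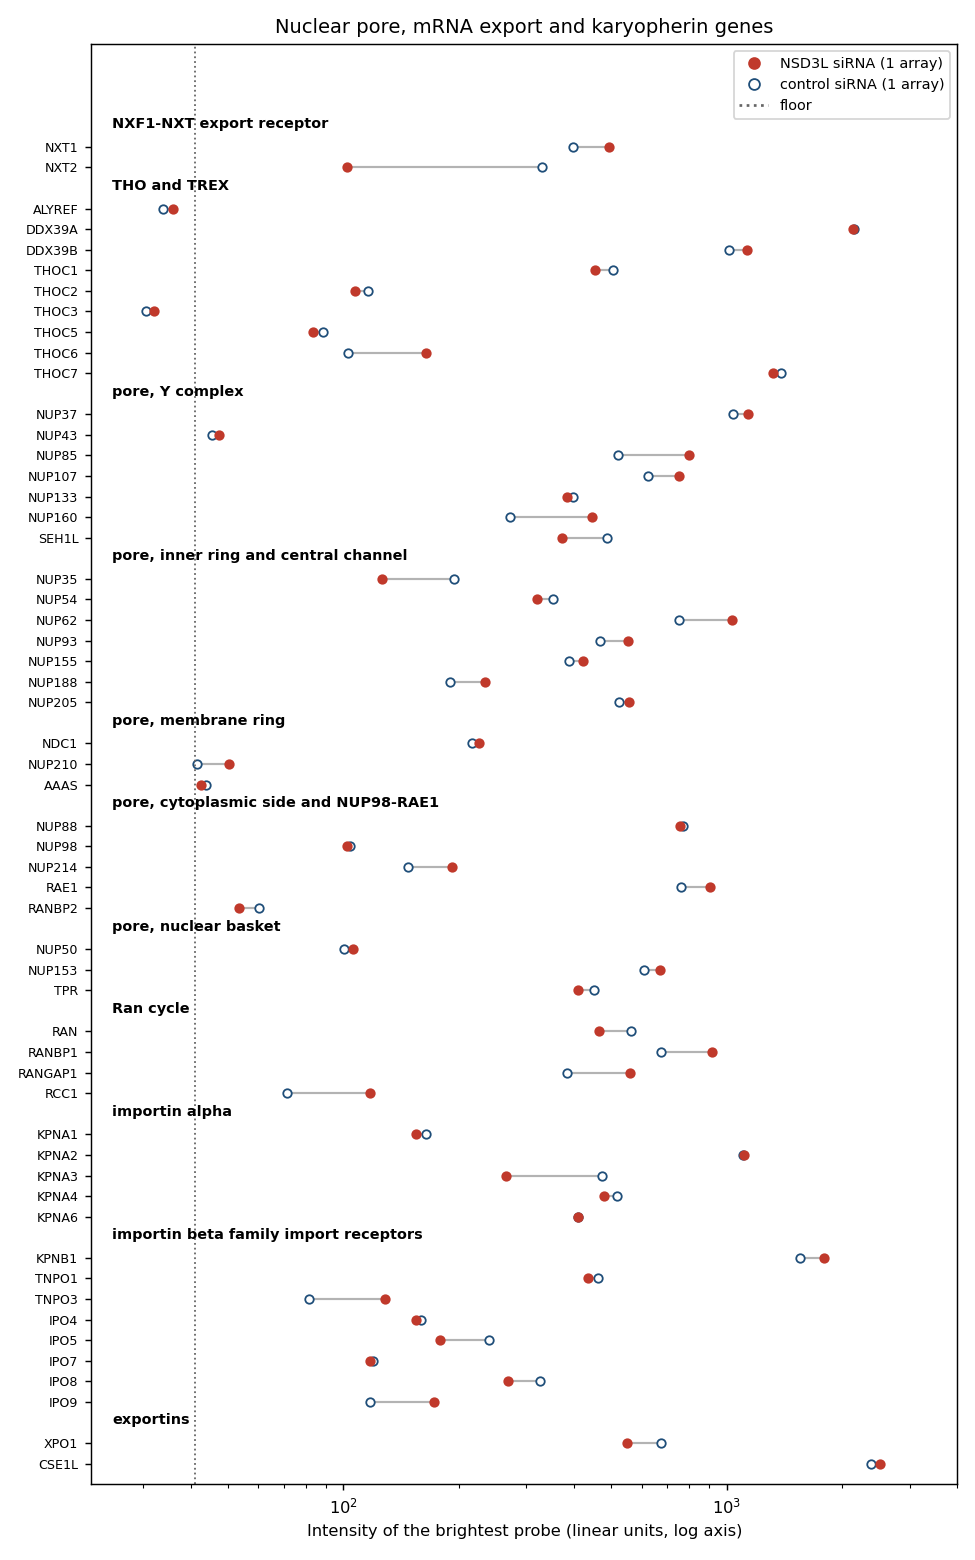
Intensity of the brightest probe of each of the 55 genes with a probe, on a log axis, for the NSD3L siRNA array (filled) and the control siRNA array (open), grouped by complex. The dotted line is the floor, and the widest gap is that of NXT2, at 103 against 330.

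NXT2 was the member with by far the lowest ratio, while its close relative NXT1 was on the other side of 0. NXT1 encodes the small partner of NXF1 that the export receptor needs to bind the pore, and NXT2 encodes a related protein that can also pair with NXF family members. NXT2 read 103 in NSD3L siRNA cells and 330 in control cells, or 31.1% of the control reading. This was 3.22-fold lower, a log2 ratio of -1.69. NXT1 read 493 in NSD3L siRNA cells and 399 in control cells, a log2 ratio of 0.31. The ratios of these 2 genes lay 1.99 log2 units apart.

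Only 1 of the 10541 measured genes had a lower ratio than NXT2. The SD of the log2 ratio was 0.40 among the 1651 probes of its brightness group, one of 10 equal groups, with a mean intensity between 172 and 299, so its ratio was 4.26 times that SD. That SD describes the spread of different genes between these 2 arrays and not the error of a repeated measurement. None of those probes had a lower ratio, and 17 were more than 2-fold lower. NXT2 was read by a single probe, whose transcript record is NM_018698, so no further probe checks it. NXT1, also read by 1 probe, had a ratio of only 0.76 times the SD of its own brightness group, within the ordinary spread. An array reads a whole culture, so fewer cells with a transcript and less of it per cell cannot be told apart. NXT2 was the only one of the 53 members more than 2-fold apart, where 0.949% of all measured genes were, 0.342% higher and 0.607% lower.

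**Figure D2:**
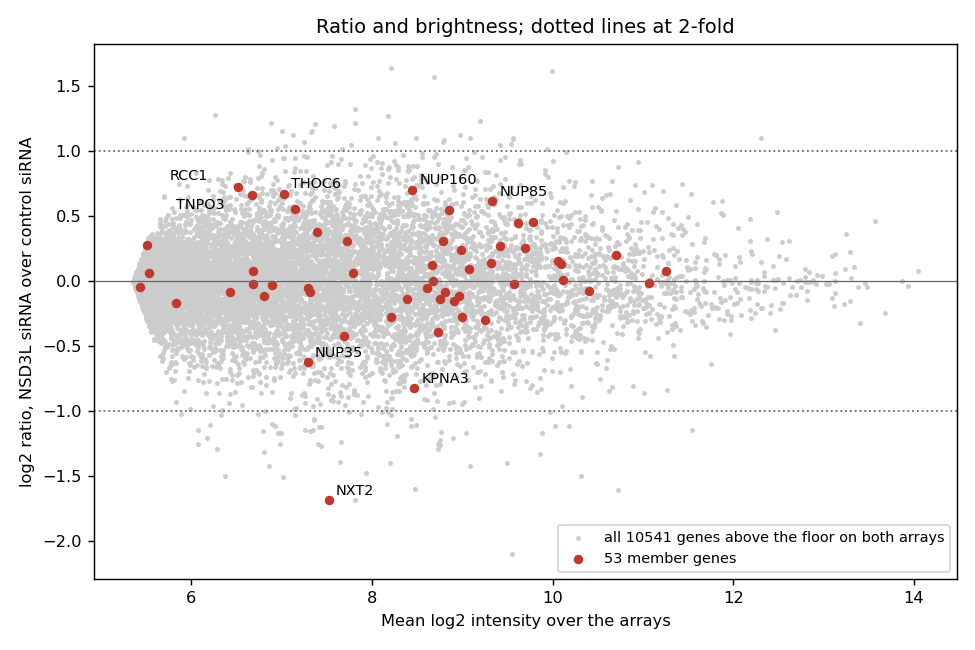
The log2 ratio, NSD3L siRNA over control siRNA, against mean log2 intensity, for all 10541 measured genes (grey) and the 53 members (red), with members more than 1.5-fold apart named and 2-fold marked by dotted lines. NXT2 lies at -1.69 and no other member reaches a dotted line.

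The promoters of NXT2 and NXT1 are shown because the related genes went opposite ways. Those of KPNA3 and RCC1, the member with the next lowest and the member with the highest ratio, were added after their values were seen. Each line is the 250 bases before the annotated start site from RefSeq on GRCh38.p14, 5′ to 3′ on the gene's strand. Capitals mark every match, on either strand and with overlaps allowed, to 7 motifs. These were CCAAT, which NF-Y binds, the TATA box as TATAAA, the GC box as GGGCGG, the ETS core CCGGAAG, an E2F site as TTTCGCGC or in the other form as TTTGGCGC, and the E-box as CACGTG. The NXT2 window is chrX:109535574-109535823 on the plus strand, the NXT1 window chr20:23350541-23350790 on the plus strand, the KPNA3 window chr13:49792683-49792932 on the minus strand and the RCC1 window chr1:28505793-28506042 on the plus strand.
NXT2: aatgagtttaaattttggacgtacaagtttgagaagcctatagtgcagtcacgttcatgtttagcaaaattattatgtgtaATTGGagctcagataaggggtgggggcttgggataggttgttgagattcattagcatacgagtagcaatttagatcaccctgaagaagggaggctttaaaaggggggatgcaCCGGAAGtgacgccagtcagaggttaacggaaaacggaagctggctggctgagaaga
NXT1: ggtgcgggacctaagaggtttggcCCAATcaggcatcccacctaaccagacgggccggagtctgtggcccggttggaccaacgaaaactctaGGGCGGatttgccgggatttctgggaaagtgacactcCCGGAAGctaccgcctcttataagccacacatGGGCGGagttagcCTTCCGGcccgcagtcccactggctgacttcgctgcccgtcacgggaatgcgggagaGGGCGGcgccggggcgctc
KPNA3: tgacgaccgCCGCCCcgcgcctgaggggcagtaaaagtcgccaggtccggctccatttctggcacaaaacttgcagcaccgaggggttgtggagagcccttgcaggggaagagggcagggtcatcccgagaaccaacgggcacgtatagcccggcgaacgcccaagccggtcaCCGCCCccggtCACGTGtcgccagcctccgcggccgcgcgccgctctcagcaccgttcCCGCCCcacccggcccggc
RCC1: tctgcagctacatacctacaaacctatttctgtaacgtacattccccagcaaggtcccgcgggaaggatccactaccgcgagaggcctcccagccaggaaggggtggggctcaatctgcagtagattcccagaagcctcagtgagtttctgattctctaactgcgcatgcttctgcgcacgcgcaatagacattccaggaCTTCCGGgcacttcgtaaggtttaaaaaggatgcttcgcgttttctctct

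The NXT2 window was poor in G and C, at 44.4% against 63.6% for NXT1, and held no GGGCGG box. The NXT1 and KPNA3 windows held 3 GGGCGG matches each, and the GC content of KPNA3 was 70.4% and that of RCC1 52.4%. NXT2, NXT1 and RCC1 had the letters CCGGAAG, and KPNA3 had a CACGTG. Of the 50 members with both a probe and a promoter entry, 18 held CCGGAAG on either strand, or 36%, where 15.8% of 8716 measured genes and 8.82% of all 27305 promoters in the table did. GGGCGG was in 54% of the members' windows, fewer than the 65.9% of measured genes and more than the 42.3% of all promoters. CCAAT was in 42% of the members' windows, 35.6% of measured genes and 33.0% of all promoters. TATAAA was in 6%, 5.78% and 11.1% of the same sets, and CACGTG in 12%, 8.88% and 6.49%. Neither E2F form was in any of the 50 members' windows, and TTTCGCGC was in 0.941% and TTTGGCGC in 0.952% of measured genes. The 16 measured members with CCGGAAG had a median log2 ratio of 0.11 and ran from -1.69 to 0.72, while the 32 without it had a median of -0.0080 and ran from -0.83 to 0.67. A match is only a match of letters, and no binding was measured here.

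In the THO and TREX complexes, which load export factors on nascent mRNA, THOC6 read apart from the rest. THOC6, a THO subunit that helps the complex to multimerise, read 164 in NSD3L siRNA cells and 103 in control cells, 1.59-fold higher and a log2 ratio of 0.67. The other 6 measured genes lay between -0.15, for THOC1, and 0.16, for DDX39B, the RNA helicase also called UAP56. DDX39A, its paralogue, had -0.01. THOC2, the large scaffold subunit, read 107 in NSD3L siRNA cells and 116 in control cells, a log2 ratio of -0.11. THOC5 and THOC7, which also belong to THO, had -0.08 and -0.07. Over the 7 measured genes 2 read higher and 5 lower, and the median was -0.07.

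The Y complex forms the outer rings of the pore scaffold and binds kinetochores in mitosis. Of its 7 genes among the members 5 were higher, and their median log2 ratio was 0.13. Its subunits SEC13 and AHCTF1, outside the list of members, were both lower, at -0.04 and -0.31. NUP160 read 445 in NSD3L siRNA cells and 273 in control cells, 1.63-fold higher. NUP85 read 799 in NSD3L siRNA cells and 521 in control cells, 1.53-fold higher. SEH1L, which sits beside NUP85 in an arm of the Y, went the other way, at 372 in NSD3L siRNA cells and 487 in control cells. Its log2 ratio was -0.39, and a dimmer SEH1L probe gave -0.21. NUP107 had a log2 ratio of 0.27 and NUP37 one of 0.13. NUP133 had -0.05. NUP43 read 47.4 in NSD3L siRNA cells and 45.4 in control cells, just above the floor, a log2 ratio of 0.06. Subunits of a complex assembled in fixed proportion thus had log2 ratios of mRNA from -0.39 to 0.70. The SD of these ratios was 0.38, and that of all measured genes was 0.33.

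In the inner ring and the central channel NUP35 stood below the other genes. NUP35 encodes an inner ring subunit that touches the pore membrane. It read 126 in NSD3L siRNA cells and 194 in control cells, 1.54-fold lower, and a dimmer probe read 108 in NSD3L siRNA cells and 191 in control cells. The log2 ratios of these probes were -0.62 and -0.83, so both placed NUP35 among the lower genes. NUP62, whose repeats fill the central channel, read 1031 in NSD3L siRNA cells and 753 in control cells, a log2 ratio of 0.45. Its channel partner NUP54 had -0.14. The large scaffold genes NUP188 and NUP205 had 0.31 and 0.09, NUP93, which anchors the channel, had 0.24, and NUP155 had 0.12. The median over the 7 genes was 0.12.

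In the membrane ring, the cytoplasmic side and the nuclear basket the log2 ratios of the 11 measured genes ran from -0.17 to 0.38. NUP210, AAAS and RANBP2 among them read near the floor, where ratios are drawn toward 0. Among the membrane genes NDC1 had a log2 ratio of 0.06, and AAAS, whose product NDC1 anchors, had -0.04. NUP210 read 50.3 in NSD3L siRNA cells and 41.6 in control cells, a log2 ratio of 0.27. Its control reading was barely above the floor, and with each array's most frequent value subtracted as background its ratio was 1.21. On the cytoplasmic side NUP214, a docking site for the export helicase, read 192 in NSD3L siRNA cells and 148 in control cells, a log2 ratio of 0.38. Its partner NUP88 had -0.02. RAE1, an mRNA export factor that binds NUP98, had log2 ratios of 0.25 and 0.44, the first from the brighter probe, while NUP98 itself had -0.02 and -0.03 by probes for different transcript records. RANBP2, the large filament protein of the cytoplasmic face, had -0.17 at readings of 53.6 in NSD3L siRNA cells and 60.3 in control cells. In the nuclear basket NUP153 had 0.14, NUP50 0.08 and TPR -0.14. Across the 25 measured pore members 16 read higher and 9 lower, and the median was 0.09.

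The Ran cycle had the highest median of any complex with at least 3 measured genes, 0.50, but it rests on 4 genes. The 3 regulators of Ran were higher and the GTPase itself was lower. RCC1, the exchange factor that loads Ran with GTP on chromatin, read 118 in NSD3L siRNA cells and 71.3 in control cells. That was 1.65-fold higher and the highest ratio among the 53 members, at 0.72. The RCC1 probe is annotated to NR_030725, a RefSeq record of the non-coding class, and whether it reads the coding transcripts was not tested. RANGAP1, the GTPase activator on the cytoplasmic side, read 560 in NSD3L siRNA cells and 383 in control cells, a log2 ratio of 0.55. RANBP1, its cofactor, read 919 in NSD3L siRNA cells and 675 in control cells, a log2 ratio of 0.44. RAN read 464 in NSD3L siRNA cells and 562 in control cells, a log2 ratio of -0.28.

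**Figure D3:**
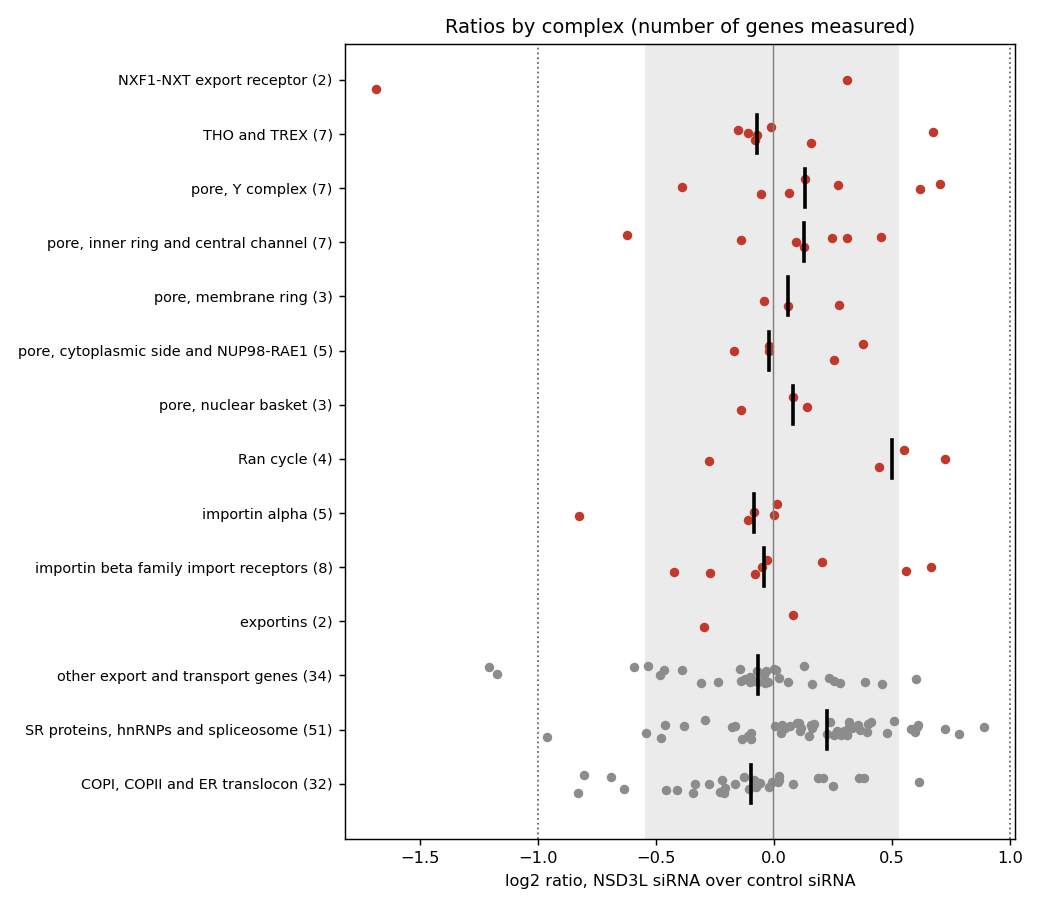
The log2 ratio of each measured gene by complex (red) and in 3 further lists (grey), with vertical bars at the median of groups with at least 3 genes, the grey band from the 5th to the 95th percentile of all measured genes (-0.54 to 0.52) and dotted lines at 2-fold. The Ran cycle has the highest median of the red groups, 0.50, and the red point at far left is NXT2.

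Importin alpha proteins are adaptors that bind the classical nuclear localisation signal, and of their genes KPNA3 was apart. KPNA3 read 267 in NSD3L siRNA cells and 473 in control cells, 1.77-fold lower and a log2 ratio of -0.83, the next lowest member after NXT2. KPNA4, of the same subfamily, read 479 in NSD3L siRNA cells and 517 in control cells, a log2 ratio of -0.11. KPNA1 and KPNA6, a further pair of paralogues, had -0.09 and -0.0012. KPNA2, an importin alpha gene that dividing cells express strongly, had 4 probes that fell into separate pairs. The brightest read 1112 in NSD3L siRNA cells and 1103 in control cells, a log2 ratio of 0.01, and the dimmest also gave 0.01. The others gave 0.29 and 0.34, all annotated to the same transcript record, so a single KPNA2 value would hide a disagreement.

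Among the import receptors of the importin beta family TNPO3 and IPO9 were higher and IPO5 and IPO8 lower. TNPO3, which imports SR splicing factors, read 129 in NSD3L siRNA cells and 81.2 in control cells, 1.59-fold higher. IPO9, a carrier of histones, read 173 in NSD3L siRNA cells and 117 in control cells, a log2 ratio of 0.56. IPO5, which carries ribosomal proteins and histones, read 178 in NSD3L siRNA cells and 239 in control cells, a log2 ratio of -0.42. IPO8 had -0.27 and its paralogue IPO7 -0.03. KPNB1, the importin beta that partners the importin alpha adaptors, had 0.20 and IPO4 -0.05. TNPO1, which imports hnRNP proteins, had -0.08 from the brightest of its probes, annotated to a cDNA record, and 0.33 and 0.04 from dimmer probes annotated to RefSeq transcripts. It was the only one of the 8 members with several measured probes whose probes had opposite signs, where 389 of 1019 such genes on the array did.

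**Figure D4:**
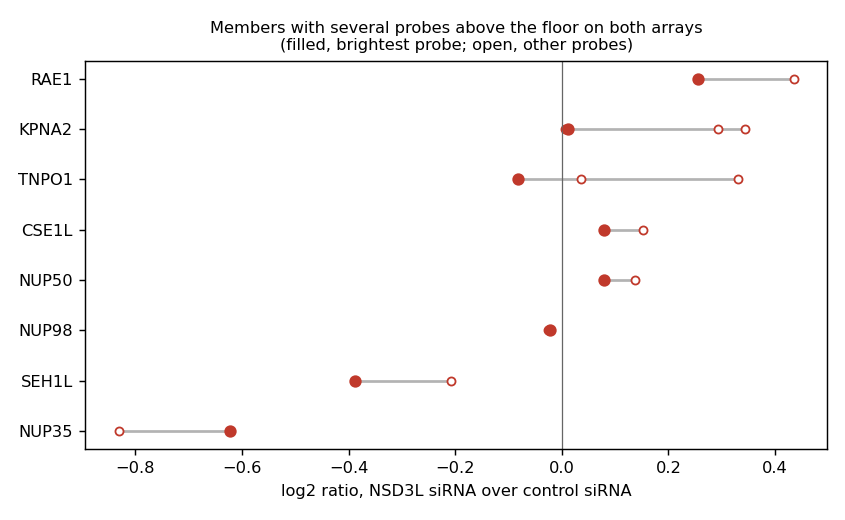
The log2 ratio of every probe above the floor on both arrays, for the 8 members with several such probes (filled, brightest; open, others). Probes of NUP35 and SEH1L all lie below 0, probes of RAE1 above it, and those of TNPO1 on both sides, from -0.08 to 0.33.

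The 2 measured exportins among the members lay near 0 or below it. XPO1, the receptor for leucine-rich export signals, read 548 in NSD3L siRNA cells and 674 in control cells, a log2 ratio of -0.30. CSE1L, which returns importin alpha to the cytoplasm, had 0.08 and 0.15 by its probes. Over the 15 measured karyopherin members 5 read higher and 10 lower, and the median was -0.05. Outside the members, the exportins XPO5 and XPO6 had 0.28 and 0.60, and XPO4 and XPO7 had -0.07 and 0.01. XPO7 read 44.8 in NSD3L siRNA cells and 44.6 in control cells, near the floor, where ratios are drawn toward 0.

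In all, 8 of the 53 members were more than 1.5-fold apart, or 15.1%, where 7.69% of all measured genes were. The 5 higher members were RCC1, NUP160, THOC6, TNPO3 and NUP85, and 3.63% of all genes were past that threshold on the higher side. The 3 lower members were NXT2, KPNA3 and NUP35, where 4.06% of all genes were. The members were brighter than most genes, with a median of 8.66 for the mean log2 intensity against 6.91, and large ratios were rarer among dim probes, with 0% past 1.5-fold in the dimmest of 10 brightness groups and up to 14.2% in brighter ones. Weighted to the members' brightness, 10.3% of all genes were past 1.5-fold, 5.19% higher and 5.13% lower. Just inside the threshold lay NUP85 at 0.62 and NUP35 at -0.62. The nearest member outside it was IPO9, at 0.56, on the higher side and IPO5, farther off at -0.42, on the lower side. For 38 of the 53 members the ratio was smaller than the SD of probes of similar brightness, or 71.7%, where 69.2% of all measured genes were. For 5 it was more than 2 times that SD, or 9.43%, where 5.35% of all measured genes were, and these were NXT2, KPNA3, TNPO3, RCC1 and NUP210.

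Members in gene-dense surroundings tended to have higher ratios than those in sparse ones. Density here counts the protein-coding neighbours of a gene up to 500 kb away from its middle, in the RefSeq annotation of GRCh38.p14. THOC6 had 42 such neighbours, NUP85 33, NUP160 19 and RCC1 and TNPO3 14 each, while NXT2 had 3, NUP35 4 and KPNA3 11. Spearman's rank correlation between density and log2 ratio was 0.56 across the 53 members, 0.53 without NXT2, and 0.32 across 10171 measured genes. These are correlations across genes of the same 2 arrays, and genes are not independent replicates. In the lowest of 10 density groups, with up to 3 neighbours, the median log2 ratio was -0.11. In the next group, with 3 to 5 neighbours, it was -0.10, and NXT2 itself had -1.69. These medians do not give the spread of single genes in sparse surroundings. With the density trend removed NXT2 had -1.56, KPNA3 -0.81 and NUP35 -0.50, and the members more than 1.5-fold higher were RCC1, TNPO3 and NUP160. The part of density in the ratios was not tested further.

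**Figure D5:**
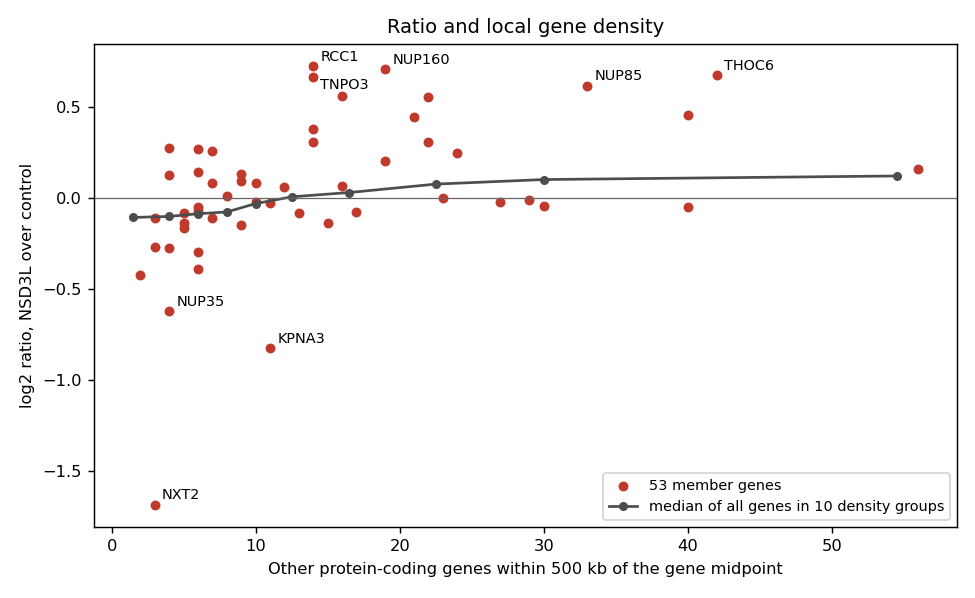
The log2 ratio of the 53 members (red) against the count of protein-coding neighbours within 500 kb, with the median of all measured genes in 10 density groups (dark line, each at the middle of its range). The line goes from -0.11 to 0.12, and NXT2, with 3 neighbours, lies at -1.69.

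Further genes of mRNA export and nuclear transport, outside the list of members, were read in the same way. Of 48 listed, 42 had a probe and 34 were measured, 12 higher and 22 lower with a median log2 ratio of -0.07. The lowest was FYTTD1, also called UIF, an adaptor that like ALYREF links mRNA to NXF1. FYTTD1 read 314 in NSD3L siRNA cells and 724 in control cells, 2.31-fold lower, and its other probe was below the floor on both arrays. TMEM33, a membrane protein found with the pore and the endoplasmic reticulum, read 351 in NSD3L siRNA cells and 791 in control cells, 2.25-fold lower. Its dimmer probe read 54.4 in NSD3L siRNA cells and 47.0 in control cells, a log2 ratio of 0.21, so the TMEM33 probes disagree.

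RANBP6, a relative of IPO5, had a log2 ratio of -0.59, and XPO6, the exportin of actin and profilin, one of 0.60. With FYTTD1 and TMEM33 these made 4 of the 34 more than 1.5-fold apart, or 11.8%, where 7.69% of all measured genes were. FYTTD1 and TMEM33 were more than 2-fold lower, where 0.607% of all measured genes were. The cap-binding gene NCBP2 had -0.48, IPO11 -0.53 and the cap-linked export adaptor of small nuclear RNA, PHAX, -0.39. NUTF2, which returns Ran to the nucleus and shares its fold with the NXT proteins, read 387 in NSD3L siRNA cells and 296 in control cells, a log2 ratio of 0.38. TNPO2, the paralogue of TNPO1, had 0.45. NXF3 and NXF5, further members of the NXF family, were below the floor on both arrays.

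Splicing and the secretory pathway gave lists to set beside the members. Of 51 measured SR protein, hnRNP and spliceosome genes, 39 read higher and the median was 0.22 on the log2 scale, beside 0.01 for the members. SF3B3, of the branch-point complex, had 0.89, HNRNPA3 0.78 and U2AF2, the polypyrimidine tract factor, 0.73. On the low side HNRNPF had -0.96, SF3B1 -0.54 and CDC5L -0.48. HNRNPF and HNRNPA3 were dim: HNRNPF read 54.3 in NSD3L siRNA cells and 106 in control cells. HNRNPA3 read 106 in NSD3L siRNA cells and 61.6 in control cells. Genes of the COPI and COPII coats and the endoplasmic reticulum translocon had 22 of 32 lower and a median of -0.10. SSR1 and COPB2 had -0.83 and -0.81, SEC23IP -0.69, SEC23A -0.64 and SEC24C 0.61. With 1 array a group, whether these lists differ from the members was not tested. The median density was 15 for the splicing genes, 13.5 for the further export and transport genes, 11 for the members and 10 for the coat and translocon genes. In the same order their median log2 ratios were 0.22, -0.07, 0.01 and -0.10, and the part of density in them was not tested.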

How the data were processed

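RNA of 2 cultures was measured on 2 arrays, 1 per group. The deposited values are linear intensities for 48701 probes. Per the submitters' processing notes the authors used BeadStudio; its version, background correction and normalization are not stated in the sources used here. Sorted log2 values of the arrays differed by at most 0.025. Precision is limited by the number of arrays.

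The log2 ratio of NSD3L siRNA over control siRNA was computed without further scaling in Python 3.11.15 (numpy 2.4.6, pandas 2.3.3, scipy 1.17.1, statsmodels 0.14.6). The floor was 2 times each array's mode, by kernel density below the 75th percentile, less the 1st percentile. A unique gene symbol was given for 23687 probes and several for 35, while 24979 stayed unnamed; symbols were updated through RefSeq gene numbers, found for 23651. The annotation identifies its platform by number only, and whether that is the HumanWG-6 v3.0 array named in the series description was not established. All 23722 of its probe identifiers were in the deposited table, but a difference in version would bear on every gene name.

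Genes were counted past 2-fold, the threshold of the series description, and past 1.5-fold. Tables were tested on simulated arrays. Members, lists and motifs were chosen with earlier results of these data known. All members were to be named, and of each other list the genes past 1.5-fold or, where over 6, the 3 highest and 3 lowest. AHCTF1, IPO11, NCBP2, NUTF2, PHAX, SEC13, TNPO2, XPO4, XPO5 and XPO7 were named after their values were seen. Protein features were not computed, since no protein sequences were used here. Alternatives were quantile normalization, median centring, lowess (span 0.3), an offset of 16, mode subtraction, other floors, means over probes and density trend removal.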

Additional observations from a re-analysis of the deposited data

How the results depend on the processing

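NXT2 was more than 2-fold lower under all 10 alternatives run, with a log2 ratio between -2.12, with the mode of each array subtracted, and -1.55, with an offset of 16. Its value cannot depend on the floor or on the rule for several probes, because it was read by 1 bright probe. Quantile normalization also left it at -1.69, since the sorted values of the arrays were already alike. These alternatives are therefore no check of its value. Subtracting the mode moved most, since it enlarges ratios of dim probes: 3 members were then more than 2-fold higher, NUP210 at 1.21, RCC1 at 1.19 and TNPO3 at 1.02, 8 were more than 1.5-fold higher, and the median of the Y complex was 0.26. Removing the gene density trend left 3 members more than 1.5-fold higher and 2 lower, and the offset of 16 left 4 higher and 2 lower. A threshold of 1.5-fold in place of 2-fold gave 5 members higher and 3 lower, and a threshold of 3-fold left 1 lower, NXT2. The medians of the members and of the other complexes moved by less than 0.1 under every alternative that gave one. Several were themselves smaller than 0.1 in size, so their signs could still change. With the density trend removed the THO and TREX median went from -0.07 to 0.00014 and that of the cytoplasmic side from -0.02 to 0.02. With means over probes that of the importin beta family went from -0.04 to 0.03. Of 517 ratios of single members under alternatives, NXT2 left out, 8 moved by over 1 SD of probes in their brightness group. Of these, 6 moved with the mode subtracted and 2 with the density trend removed. Another 8 changes of sign came from ratios no larger than 0.11 in size. Many of the 517 could hardly move. A floor does not change the ratio of a gene above it, and means over probes change only genes with several probes. Quantile normalization does little where the sorted values of the arrays already match. No paired analysis was possible because each group has 1 array, and leaving out a replicate was not possible for the same reason. Readings near the floor, as for NUP210, AAAS, NUP43 and RANBP2, keep mostly background, and their ratios are drawn toward 0.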

Other observations

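None of the measured genes nearest to NXT2 on chromosome X had a lower ratio, but only 1 of all 10541 measured genes did. The comparison therefore cannot show whether the low ratio was confined to NXT2. Counted over protein-coding genes of the GRCh38.p14 annotation, ACSL4, a fatty acid ligase gene in the next place but 1, read 467 in NSD3L siRNA cells and 700 in control cells, a log2 ratio of -0.58. KCNE5, the adjacent gene on that side, had -0.05 at dim readings of 58.3 in NSD3L siRNA cells and 60.6 in control cells. COL4A5, a collagen gene on the other side, had -0.18. GUCY2F, IRS4 and COL4A6 were below the floor on both arrays, and TMEM164 was above it on the NSD3L siRNA array alone, at 42.9 against 37.6. THOC2, the other measured member on chromosome X, had -0.11.

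Among paralogous pairs the gap in log2 ratio was 1.99 between NXT1 and NXT2 and 0.71 between KPNA4 and KPNA3. It was 0.54 between TNPO2 and TNPO1, 0.24 between IPO7 and IPO8, 0.17 between DDX39B and DDX39A and 0.08 between KPNA6 and KPNA1. The TNPO1 value is that of its brightest probe, and its dimmer probes would narrow the gap. These pairs were chosen with their values known and have no error between cultures.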
